A study of Mus musculus with 39 samples.

Results

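The 40 genes described here encode the scaffold, Z-disc, M-band and thin filament of the sarcomere, the light chains of its myosin, the ubiquitin ligases and Kelch proteins of its turnover, and actin-binding proteins of its attachment sites. They were taken by symbol from a fixed list, with no measured value in the rule. The list was chosen with earlier results of these data known. All 40 were among the 21561 Ensembl genes in both deposited count tables. Their RNA was measured by RNA-seq in the gubernaculum, the ligament that runs from the testis to the inguinal abdominal wall of the male mouse. All mice were C57BL/6J males. WT mice carry mouse Insl3. INSL3-KI mice are homozygous for the minke whale INSL3 cDNA targeted to the mouse locus, in a line from embryonic stem cell clones whose neomycin cassette was removed with Cre. INSL3-KO mice lack INSL3, and how that allele was made is not given in the sources used here. WT, INSL3-KI and INSL3-KO gubernaculum was sequenced at postnatal day 8 (P8), and WT and INSL3-KI gubernaculum at postnatal day 23 (P23). Each of these 5 groups had 3 libraries that the labels call biological replicates, 15 of the 39 libraries of the series. Whether a library came from 1 animal or a pool, whether its WT mice were littermates and which Cre line was used are not given in the sources used here, and the RNA is of whole tissue. INSL3-KO gubernaculum libraries stand in another table than the WT and INSL3-KI libraries, so that table and genotype cannot be told apart in any comparison with INSL3-KO.

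The sarcomere is the contractile unit of striated muscle. Actin-based thin filaments are anchored in the Z-disc, myosin-based thick filaments are held together at the M-band, and titin spans from one to the other. Skeletal muscle uses fast and slow forms of many of these proteins and replaces embryonic forms after birth, while smooth muscle has no Z-discs and uses other actin, myosin and light chain genes. INSL3 is a peptide hormone of Leydig cells that acts on the gubernaculum through its receptor RXFP2, and the gubernaculum around birth forms the striated cremaster muscle at its outer end.

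Promoters of muscle genes often hold CArG boxes, which bind serum response factor, and sites for MEF2 factors and myogenic bHLH factors. Of the 40 genes, 28 had a promoter in the RefSeq tables (GRCm38.p6). In the 250 bases before the start, 5 of these 28 (17.9%) held a CArG box, against 1.47% of 32851 promoters in all, and 6 (21.4%) held a MEF2 site, against 2.92%. The hexamer CAGCTG, a form of the E-box that myogenic bHLH factors bind, was found in 14 (50%), against 13% of all promoters. The search patterns of all 3 motifs are the same on both strands, although the letters matched can differ. No promoter of the 28 held both a CArG box and a MEF2 site. A match describes the letters of the window and no binding was measured. The 60-base windows below, on the strand of the gene, are shown because their genes belong to the members described in detail below or, for Mylk4, to the kinases of the light chains. Capitals mark the motif, a CArG box in the first 4 and a MEF2 site in the next 4. The windows of Actc1, Myl3 and Myom1 lie wholly within the GENCODE span of their own gene, since the RefSeq start used lies inside it.
Acta1 promoter, chr8:123894814-123894873, minus strand: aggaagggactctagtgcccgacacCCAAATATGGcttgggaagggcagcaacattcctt
Actc1 promoter, chr2:114052888-114052947, minus strand: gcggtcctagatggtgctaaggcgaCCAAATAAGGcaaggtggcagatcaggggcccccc
Myl3 promoter, chr9:110763568-110763627, plus strand: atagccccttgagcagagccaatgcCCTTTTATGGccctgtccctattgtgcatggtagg
Myom1 promoter, chr17:71019433-71019492, plus strand: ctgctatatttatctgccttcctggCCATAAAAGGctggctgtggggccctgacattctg
Ttn promoter, chr2:76982679-76982738, minus strand: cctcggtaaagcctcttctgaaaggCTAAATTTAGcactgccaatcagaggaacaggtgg
Klhl41 promoter, chr2:69670032-69670091, plus strand: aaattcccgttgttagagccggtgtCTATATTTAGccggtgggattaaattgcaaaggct
Xirp2 promoter, chr2:67445903-67445962, plus strand: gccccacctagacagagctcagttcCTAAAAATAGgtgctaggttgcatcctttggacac
Mylk4 promoter, chr13:32784033-32784092, minus strand: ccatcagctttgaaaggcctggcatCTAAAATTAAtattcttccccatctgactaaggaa
Of the 5 genes with a CArG box, INSL3-KI gubernaculum at P8 kept 29.9% of the WT level of Myom1, 5.97% of that of Acta1, 1.63% of that of Ldb3, 0.0889% of that of Myl3 and 0.0360% of that of Actc1. The 6 genes with a MEF2 site kept between 0.0760% (Klhl41) and 0.310% (Myom3).

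Total counts ranged from 29861447 to 45260372 per library. The 40 genes took 4.71% ± 0.083 (SD, n = 3) of the counts in shared genes in WT at P8, 0.632% ± 0.091 in INSL3-KI and 1.42% ± 0.065 in INSL3-KO. At P23 they took 8.90% ± 2.07 in WT and 0.340% ± 0.225 in INSL3-KI. Marker lists were checked in the same libraries, in CPM (counts scaled to library size, with TMM factors over the 15 libraries). The summed level of 10 skeletal muscle fibre markers lay between 9868 and 12061 CPM in WT at P8, 83.6 to 97.6 CPM in INSL3-KI and 2388 to 2575 CPM in INSL3-KO. Of 8 satellite cell and myoblast markers the sum was 937 to 1095 CPM, 14.9 to 20.8 CPM and 163 to 171 CPM in the same order, and Pax7, which marks satellite cells, had no count in any INSL3-KI library. The sum of 9 smooth muscle markers was higher in the mutants, with 3798 to 4257 CPM in WT, 16435 to 21023 CPM in INSL3-KI and 7913 to 8434 CPM in INSL3-KO. Of the 9, Acta2, Actg2, Lmod1, Myh11, Tagln and Cnn1 lay above WT in every mutant library, desmin (Des), which striated muscle uses too, lay below WT in every one, and Smtn and Synpo2 lay below WT in INSL3-KO. Heart markers (10 genes) summed to between 1283 and 1822 CPM in WT, 35.6 to 39.3 CPM in INSL3-KI and 143 to 159 CPM in INSL3-KO. In WT nearly all of that sum was Myl4 and Tnnt2, which embryonic skeletal muscle also uses, while Nppa, Nppb, Myl7, Mybpc3 and Nkx2-5 were near 0 in every group. Ryr2 lay above WT in every mutant library at P8, with 0.600 to 0.885 CPM in WT and 3.60 to 9.64 CPM in INSL3-KI. Fibroblast and tendon markers (7 genes) summed to 32981 to 35177 CPM in WT, 12975 to 19050 CPM in INSL3-KI and 20230 to 21435 CPM in INSL3-KO. Most of that sum was Col1a1 and Col3a1, which with Scx lay below WT in every mutant library. Dcn and Tnmd lay below WT in INSL3-KI but above it in INSL3-KO. Lum lay above WT in INSL3-KO and overlapped it in INSL3-KI, and Pdgfra overlapped WT in both mutants. Epididymal and Wolffian epithelium markers (10 genes) summed to at most 50.1 CPM in WT at P8, at least 861 CPM in INSL3-KI and at least 508 CPM in INSL3-KO. Adipocyte markers (7 genes) summed to at most 110 CPM in WT and to at least 736 and 1902 CPM in the mutants. Hepatocyte markers (5 genes) were at most 15.6 CPM in WT and INSL3-KI but 6378, 1622 and 133 CPM in INSL3-KO replicates 1 to 3. Sums of 6 Schwann cell markers were 430 to 505 CPM in WT, 209 to 259 CPM in INSL3-KI and 435 to 460.5 CPM in INSL3-KO, and those of 5 macrophage markers 251 to 328 CPM, 127 to 146 CPM and 227 to 234 CPM. At P23 the sums in WT and INSL3-KI were 41121 to 76739 CPM and 3.78 to 172 CPM for skeletal muscle fibre, 376 to 447 CPM and 1.75 to 6.05 CPM for satellite cell, 6567 to 9427 CPM and 2088 to 15710 CPM for smooth muscle, and 14017 to 32793 CPM and 3414 to 11175 CPM for fibroblast and tendon markers. Epididymal and Wolffian epithelium markers at P23 summed to 57.5 to 246 CPM in WT and to 1161, 4.21 and 2150 CPM in INSL3-KI replicates 1 to 3. Sums of 5 endothelium markers at P23 were 375 to 614 CPM in WT and 645, 2154 and 212 CPM in these INSL3-KI replicates. The part of these other tissues in the results below was not tested, and in bulk RNA fewer muscle cells and less RNA per cell cannot be told apart.

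Some libraries stood apart from their group. INSL3-KI replicate 2 at P23 had 12.7 CPM of Acta1 against 835 and 569 CPM in its group, 354 CPM of the smooth muscle myosin Myh11 against 5759 and 4072 CPM, and an adipocyte marker sum of 14202 CPM against 6141 and 471 CPM. WT replicate 1 at P23 had 11.2% of its counts in the 40 genes against 8.26% and 7.23%. The median coefficient of variation of members with at least 10 CPM was 12.7% in WT at P8 (39 members), 16.9% in INSL3-KI (9 members) and 4.80% in INSL3-KO (38 members). At P23 it was 36.6% in WT (39 members) against 79.8% in INSL3-KI (9 members). Members at this level thus varied more between libraries at P23 than at P8.

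**Figure D1:**
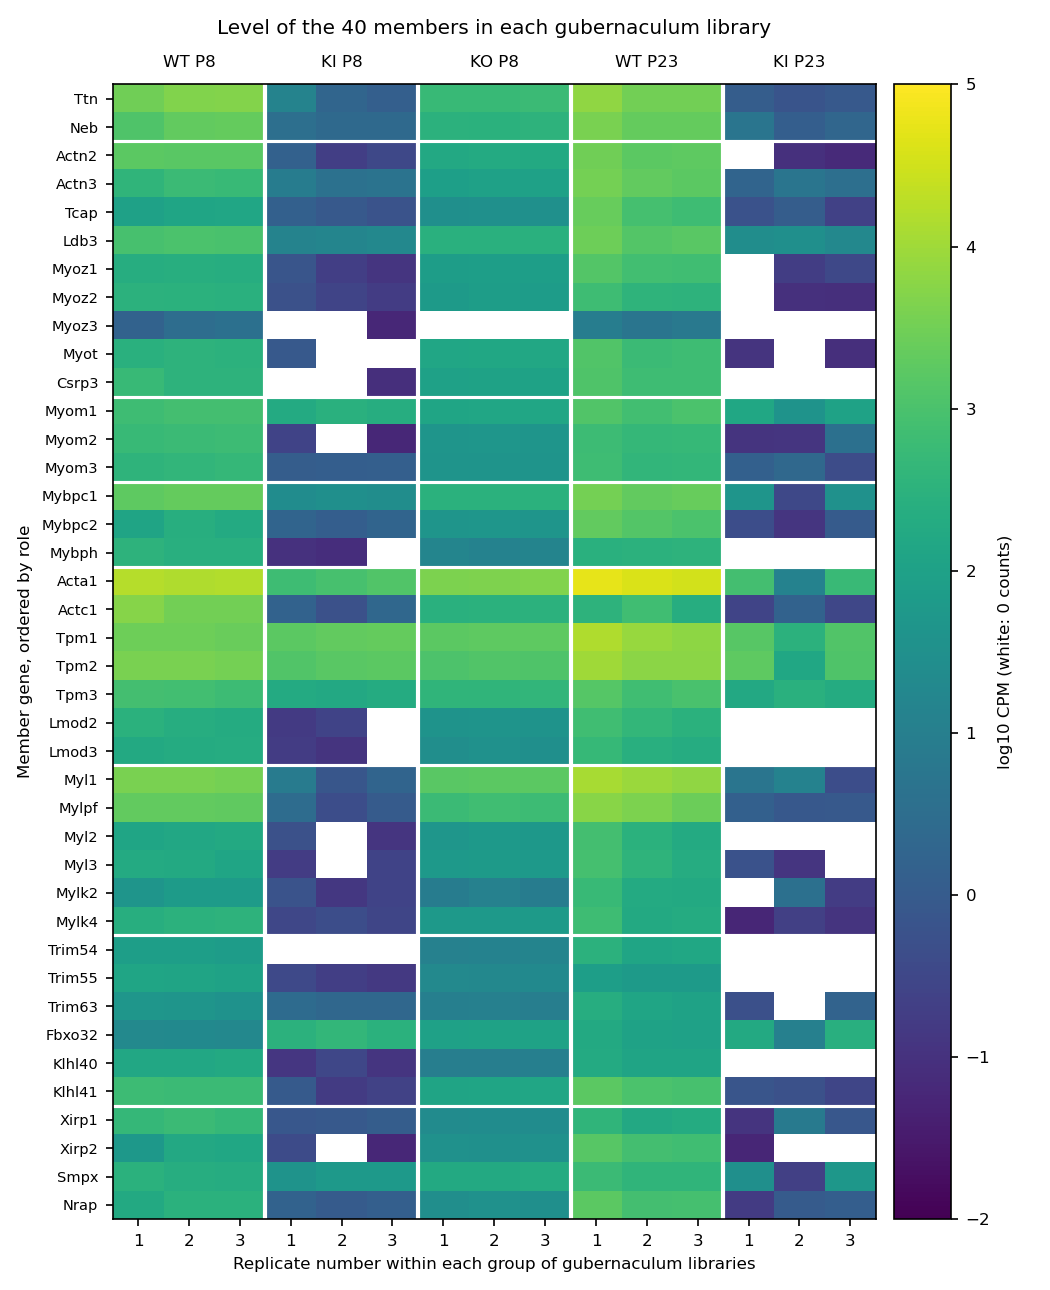
Level of each of the 40 genes (rows, ordered by role) in each of the 15 gubernaculum libraries (columns, replicates 1 to 3 of each group), as log10 CPM, with white cells for 0 counts. The INSL3-KI columns are dark for nearly all genes at both ages, while Acta1, Tpm1, Tpm2, Tpm3, Myom1, Fbxo32 and Smpx stayed visible at P8, and the INSL3-KO columns lie between WT and INSL3-KI for most genes.

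The first comparison asked how the whale INSL3 allele changed these genes at P8. In INSL3-KI gubernaculum 38 of the 40 genes were lower than in WT, 1 (Fbxo32) was higher and 1 (Tpm1) was not called, by edgeR's quasi-likelihood test with Benjamini-Hochberg adjustment over all 15500 genes tested, at an adjusted p under 0.01 and a change of at least 2-fold. Among all genes tested, 9.7% were called lower and 14.4% higher (1503 and 2238 genes, or 1133 and 3144 with library size as the only scaling, under which the median log2 fold change over all genes went from 0.02 to 0.34). The median log2 fold change of the 40 genes was -9.30 and that of all genes 0.02. The median gene kept 0.151% of its WT level. In 39 of the 40 genes every INSL3-KI library lay below every WT library, and for Fbxo32 every one lay above, where 32.2% and 33% of all genes tested had groups that did not overlap in these directions.

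The second comparison asked the same of the loss of INSL3. In INSL3-KO gubernaculum 36 of the 40 genes were lower than in WT, or 35 without Myoz3, Fbxo32 was higher, and Tpm1, Tpm3 and Smpx were not called, with 15.2% of 15609 genes tested called lower and 15.5% higher. With all 5 gubernaculum groups in 1 fit, 24 were lower, against 11.8% of all genes. The calls of Myoz1, Myot, Mybpc1, Acta1, Tpm2, Myl1, Mylpf, Myl2, Myl3, Mylk2, Trim63 and Xirp2 were lost in that fit, with adjusted p-values between 0.012 (Mylpf) and 0.29 (Myl1). The 36 include Myoz3, which is listed at 0 in every INSL3-KO library. A broadly expressed gene, Adnp, is also listed at 0 there, so no fold is given for Myoz3. The median log2 fold change was -2.24, and the median gene kept 21.3% of its WT level. All libraries of INSL3-KO lay below all those of WT for 39 genes, against 35.6% of all genes tested, and above them for Fbxo32, against 39%.

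The mutants were then compared directly. In INSL3-KI gubernaculum 35 genes were lower than in INSL3-KO, Fbxo32 was higher and Myom1, Tpm1 and Tpm2 were not called, while Myoz3 was not tested. The calls of Mybpc1 (adjusted p = 0.014), Acta1 (0.066), Trim63 (0.022) and Smpx (0.15) were lost with all 5 groups in 1 fit. Of 15642 genes tested, 10.5% were called lower and 11.9% higher (1650 and 1865 genes, or 1224 and 2491 with library size as the only scaling). The median log2 fold change over the 39 tested genes was -6.58.

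**Figure D2:**
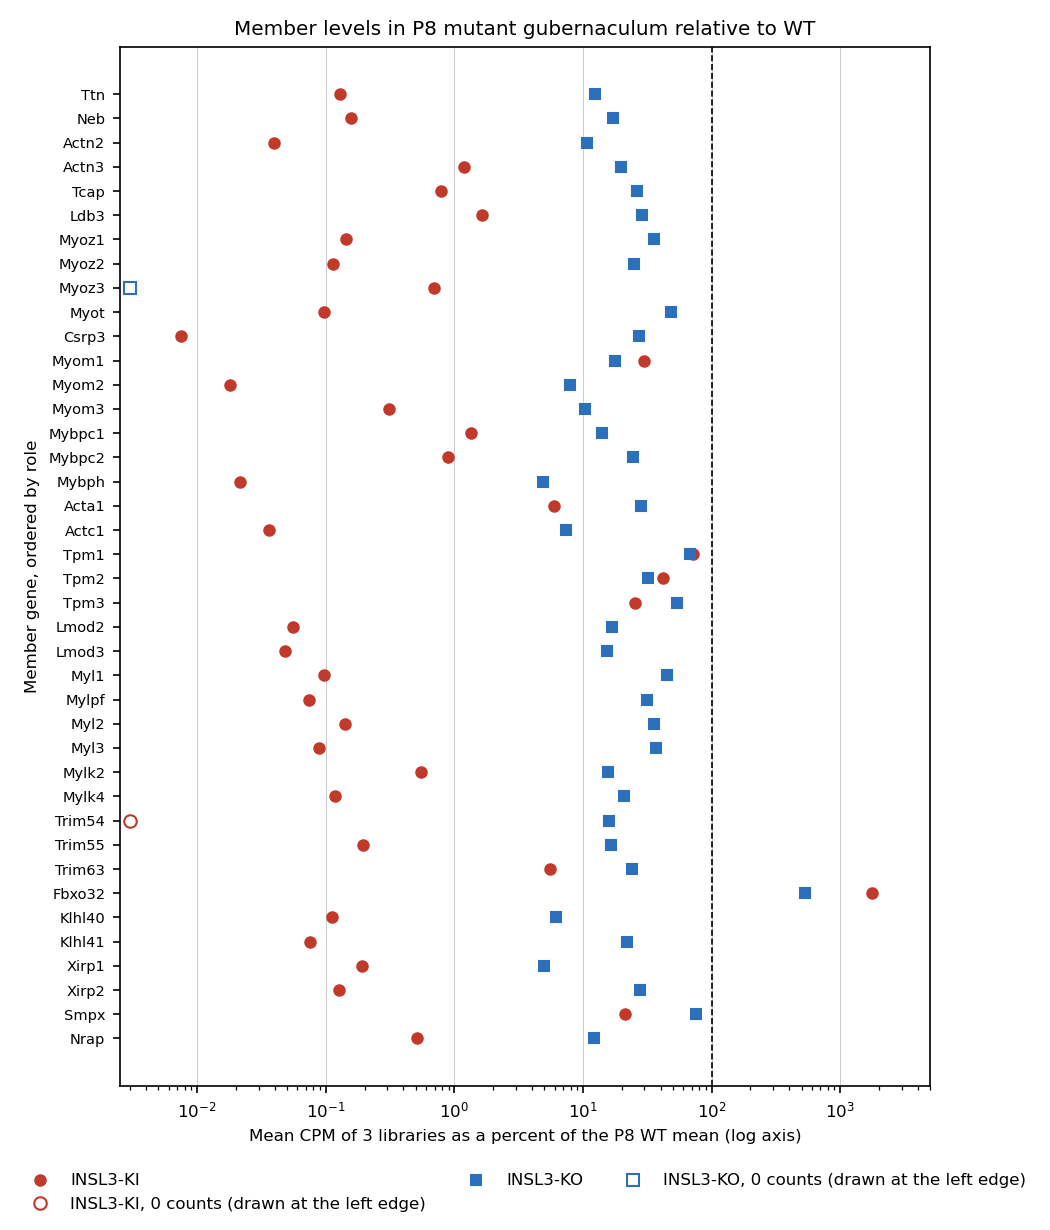
Mean CPM of each of the 40 genes in INSL3-KI (circles) and INSL3-KO (squares) gubernaculum at P8 as a percent of the WT mean (log axis, 3 libraries per group). Most circles lie near 0.1% and most squares between 5% and 50%, Myom1, Tpm1, Tpm2, Acta1, Tpm3 and Smpx lie further right in INSL3-KI, and Fbxo32 lies to the right of 100% in both mutants.

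Both giant scaffold genes were lower in both mutants. Titin (Ttn, chr2:76703980-76982547) is the molecular spring from Z-disc to M-band, and nebulin (Neb, chr2:52136647-52378474) runs along the thin filament. The Ttn level was 3092, 4815 and 5109.9 CPM in WT replicates 1 to 3 at P8, 13.4, 1.88 and 1.34 CPM in INSL3-KI and 529, 521 and 574 CPM in INSL3-KO. Replicate 1 of INSL3-KI was the highest of its group and still far below each INSL3-KO library. The log2 fold change of Ttn was -9.56 ± 1.02, adjusted p = 0.00012 in INSL3-KI and -3.01 ± 0.20, adjusted p = 1.6e-05 in INSL3-KO. Neb had the higher level per length of the pair in WT, 99.0 ± 34.9 FPKM (fragments scaled to gene length and library size, SD, n = 3) against 47.4 ± 11.4 FPKM. The Neb level was 1171, 2025 and 2274 CPM in WT, 3.60, 2.50 and 2.51 CPM in INSL3-KI and 306, 299.8 and 333 CPM in INSL3-KO. No group overlapped another for either gene. Neb changed by -9.27 ± 0.36, adjusted p = 7e-07 in INSL3-KI and by -2.55 ± 0.24, adjusted p = 8.4e-05 in INSL3-KO, and WT replicate 1 was the lowest of its group for both scaffold genes.

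All 9 Z-disc genes were lower in INSL3-KI, and 8 of them in INSL3-KO, leaving aside Myoz3, which is listed at 0 there. Alpha-actinin-2 (Actn2, chr13:12269426-12340760), which cross-links thin filaments in the Z-disc, had the highest level per length of the 9 in WT at P8, 476 ± 20.6 FPKM. Its level was 1738, 1601 and 1662 CPM in WT, 1.45, 0.197 and 0.321 CPM in INSL3-KI and 169, 187 and 182 CPM in INSL3-KO. INSL3-KI thus kept 0.0393% of the WT level of Actn2 (-11.23 ± 0.61, adjusted p = 3.1e-06) and INSL3-KO kept 10.8% (-3.22 ± 0.07, adjusted p = 6.6e-07). Csrp3, a LIM protein of the Z-disc in heart and slow muscle (chr7:48830398-48848033), fell furthest. It was at 518, 327 and 325 CPM in WT, at 0, 0 and 0.0876 CPM in INSL3-KI and at 101, 109 and 107 CPM in INSL3-KO. The 3 INSL3-KI libraries held 3 reads of Csrp3 in all, and the ratio of WT to INSL3-KI was 14171, with a 95% Poisson interval of 4849 to 68721 that covers counting error only. Ldb3, a PDZ-LIM protein that binds alpha-actinin (chr14:34526603-34588682), fell least of the 9. Its level was 901, 1009 and 968 CPM in WT, 13.6, 15.1 and 18.3 CPM in INSL3-KI and 270.4, 274 and 284 CPM in INSL3-KO. The log2 fold change of Ldb3 was -5.90 ± 0.16 and -1.80 ± 0.07 in INSL3-KI and INSL3-KO.

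The other Z-disc genes fell to between 0.0963% (Myot) and 1.18% (Actn3) of WT in INSL3-KI and stood between 19.9% (Actn3) and 47.9% (Myot) of WT in INSL3-KO, without Myoz3. Myotilin (Myot), which binds alpha-actinin and filamin, thus had the lowest share of these genes in one mutant and the highest in the other. Its level was 272, 332 and 318 CPM in WT, 0.888, 0 and 0 CPM in INSL3-KI and 139.6, 145 and 156 CPM in INSL3-KO. Titin-cap (Tcap), which joins titin ends in the Z-disc, changed by -6.93 in INSL3-KI and -1.94 in INSL3-KO, and fast alpha-actinin-3 (Actn3) by -6.36 and -2.34. The calsarcins Myoz1 and Myoz2, of fast and of slow and cardiac muscle, tether calcineurin to the Z-disc and changed by -9.34 and -9.69 in INSL3-KI, and by -1.50 and -2.02 in INSL3-KO. The third calsarcin, Myoz3, was scarce, at 1.54, 3.12 and 3.76 CPM in WT and 0, 0 and 0.0584 CPM in INSL3-KI. Its INSL3-KI libraries held 2 reads in all, for a ratio of 154 with an interval of 42.1 to 1275.

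The M-band genes split. Myomesins cross-link myosin filaments at the M-band, and Myom1, the most widely used of the 3 (chr17:71002633-71126856), was highest per length in WT at P8, 119.6 ± 13.9 FPKM. Its level was 677, 802 and 827 CPM in WT, 185, 274 and 231 CPM in INSL3-KI and 132, 141 and 138 CPM in INSL3-KO. INSL3-KI libraries were all above the INSL3-KO libraries, the reverse of the order in Ttn or Actn2. Myom1 was lower than WT in both mutants (-1.70 ± 0.17 in INSL3-KI and -2.50 ± 0.10 in INSL3-KO), and between the mutants it differed by 0.75 ± 0.14, adjusted p = 0.0025, under 2-fold. Myom2, the myomesin of adult fast fibres, behaved otherwise, with 515, 586 and 623 CPM in WT, 0.254, 0 and 0.0584 CPM in INSL3-KI and 43.8, 47.7 and 44.3 CPM in INSL3-KO. The change of Myom2 was -12.28 ± 0.44, adjusted p = 5.2e-07 in INSL3-KI and -3.67 ± 0.10, adjusted p = 9.2e-07 in INSL3-KO, the largest fall of the 3 in each mutant. Myom3 stood at 0.310% and 10.4% of WT in the INSL3-KI and INSL3-KO groups. The gene of Myl12a, a light chain of non-muscle myosin, overlaps the end of Myom1 in the annotation, and strand settings of the counting are not given in the sources used here.

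The 3 myosin-binding proteins were lower in both mutants. Myosin-binding protein C, a regulator on the thick filament, comes in a slow form (Mybpc1, chr10:88518279-88605152) and a fast form (Mybpc2). Mybpc1 was highest per length in WT at P8, 525 ± 58.0 FPKM, and fell least in INSL3-KI. It was at 1784, 2203 and 2197 CPM in WT, 25.8, 31.2 and 26.7 CPM in INSL3-KI and 288, 291 and 293 CPM in INSL3-KO. The replicates lay close together in each group, and the log2 fold changes of Mybpc1 were -6.17 ± 0.18, adjusted p = 2e-07 in INSL3-KI and -2.83 ± 0.10, adjusted p = 1.7e-06 in INSL3-KO. Mybph, the related protein H (chr1:134193448-134201232), fell most. Its level was 329, 266 and 266 CPM in WT, 0.101, 0.0843 and 0 CPM in INSL3-KI and 14.9, 12.7 and 14.3 CPM in INSL3-KO. INSL3-KO kept 4.87% of the WT level of Mybph (-4.37 ± 0.12, adjusted p = 9.4e-07) and INSL3-KI 0.0216% (-12.01 ± 0.32, adjusted p = 1.4e-07). Mybpc2 stood at 0.890% of WT in INSL3-KI, against 24.4% in INSL3-KO.

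By its median the thin filament role kept more RNA than any other role in INSL3-KI, 5.97% of WT, but not in INSL3-KO, where it kept 28.3% against 33.6% for the light chains and kinases. Skeletal actin (Acta1, chr8:123891769-123894751) had the highest level per length of all 40 genes in WT at P8, 9389 ± 587 FPKM. It was at 16757, 14892 and 15515 CPM in WT, 670.1, 909.6 and 1238 CPM in INSL3-KI and 4227, 4498 and 4622 CPM in INSL3-KO. Acta1 was thus lower in INSL3-KI (-4.03 ± 0.26, adjusted p = 7e-06) and INSL3-KO (-1.83 ± 0.07, adjusted p = 1.9e-06) but kept 5.97% and 28.3% of its WT level. Cardiac actin (Actc1, chr2:114047282-114053548), the actin of the heart and of embryonic skeletal muscle, fell much further. The Actc1 level was 5516, 3175 and 3238 CPM in WT, 1.60, 0.562 and 2.13 CPM in INSL3-KI and 279, 293 and 313 CPM in INSL3-KO. Its log2 fold change was -11.40 ± 0.55, adjusted p = 1.9e-06 in INSL3-KI and -3.76 ± 0.23, adjusted p = 1.3e-05 in INSL3-KO, the largest fall of the thin filament genes in each mutant. Smooth muscle actin Acta2 was at 1152, 908 and 827 CPM in WT and 6943, 7718 and 7923 CPM in INSL3-KI. The coding sequences of Acta1 and Acta2 are 85.4% identical in the GRCm38 transcripts, and the longest run of bases they share is 29, shorter than the 150-base reads. Those of Acta1 and Actg2 are 85.2% identical, and Actg2 was at 1.98 to 3.40 CPM in WT and 974 to 1387 CPM in INSL3-KI at P8. The assignment of reads between the actin genes was not tested.

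The tropomyosins Tpm1, Tpm2 and Tpm3, coiled coils that run along actin in all muscle and in other cells, kept the largest shares of the thin filament genes in both mutants. Tpm1 (chr9:67022590-67049406) was at 2789, 2935 and 2452 CPM in WT, 1709.8, 2024 and 2148 CPM in INSL3-KI and 1776, 1885 and 1836 CPM in INSL3-KO. Both mutants lay below WT without overlap and overlapped each other. The change of Tpm1 was -0.44 ± 0.15, adjusted p = 0.034 in INSL3-KI and -0.58 ± 0.08, adjusted p = 0.00062 in INSL3-KO, under 2-fold in both, and 0.11 ± 0.09, adjusted p = 0.35 between the mutants. Tpm2 (chr4:43514711-43523765), the beta form, was at 3896, 3791 and 3416 CPM in WT, 1255, 1664 and 1746 CPM in INSL3-KI and 1119, 1254 and 1179.9 CPM in INSL3-KO. It was called lower in INSL3-KI (-1.21 ± 0.16, adjusted p = 0.00045) and in INSL3-KO (-1.65 ± 0.08, adjusted p = 4.1e-06). Its call in INSL3-KI was lost with library size as the only scaling (-0.90), with all 5 groups in 1 fit (adjusted p = 0.11) and with limma on log2(FPKM + 1) (-0.34). Tpm3 (chr3:90072649-90100902), the slow-fibre form, was at 811, 759 and 623 CPM in WT, 194, 164 and 199.6 CPM in INSL3-KI and 385, 381 and 407 CPM in INSL3-KO. Here INSL3-KO lay between the other groups, and the change was -1.94 ± 0.14, adjusted p = 1.4e-05 in INSL3-KI, -0.91 ± 0.10, adjusted p = 0.00022 in INSL3-KO and -1.07 ± 0.09, adjusted p = 7.1e-05 between the mutants. The smooth muscle marker sum was higher in both mutants than in WT, and its part in what was left of actin and tropomyosin RNA was not tested. The leiomodins Lmod2 and Lmod3, which start new actin filaments, fell to 0.0560% and 0.0482% of WT in INSL3-KI and to 16.8% and 15.4% in INSL3-KO.

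All 6 myosin light chain and light chain kinase genes were lower in both mutants. Myl1 (chr1:66924295-66945404), the essential light chain of fast muscle, was highest per length in WT at P8, 3540.1 ± 297 FPKM. It was at 4008, 3884 and 3479 CPM in WT, 8.35, 0.758 and 1.84 CPM in INSL3-KI and 1602, 1766 and 1745 CPM in INSL3-KO, so that its 3 groups did not overlap. The change of Myl1 was -9.97 ± 0.90, adjusted p = 4.8e-05 in INSL3-KI and -1.16 ± 0.08, adjusted p = 1.8e-05 in INSL3-KO. Mylpf (chr7:127208890-127214298), the fast regulatory light chain, fell most in INSL3-KI. Its level was 2039, 2033 and 1990.4 CPM in WT, 2.97, 0.449 and 1.05 CPM in INSL3-KI and 588, 711 and 619.8 CPM in INSL3-KO, for changes of -10.35 ± 0.62 and -1.67 ± 0.09. Mylk2 (chr2:152911352-152923068), the light chain kinase of skeletal muscle, fell least in INSL3-KI. It was at 44.1, 70.9 and 69.7 CPM in WT, 0.609, 0.140 and 0.263 CPM in INSL3-KI and 8.59, 11.8 and 8.45 CPM in INSL3-KO (-7.43 ± 0.40 and -2.69 ± 0.23 on the log2 scale). In INSL3-KO, by contrast, Mylk2 was the lowest of the 6 at 15.6% of WT and Myl1 the highest at 45.0%. Myl2, the regulatory light chain of slow and cardiac muscle, was at 129, 155 and 176 CPM in WT, 0.533, 0 and 0.117 CPM in INSL3-KI and 46.6, 62.7 and 54.1 CPM in INSL3-KO. Myl3, its essential partner, was at 186, 175 and 134 CPM in WT, 0.178, 0 and 0.263 CPM in INSL3-KI and 60.1, 63.6 and 57.8 CPM in INSL3-KO. Both slow light chains were absent from INSL3-KI replicate 2 and stood near 36% of WT in INSL3-KO (35.5% and 36.7%). The kinase Mylk4 stood at 0.117% of WT in INSL3-KI, against 20.7% in INSL3-KO.

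Of the 6 turnover genes, 5 were lower and Fbxo32 was higher in both mutants. Fbxo32 encodes atrogin-1, a ubiquitin ligase subunit that rises in wasting muscle (chr15:58175879-58214932). It was at 19.2, 21 and 19.1 CPM in WT, 318, 441 and 294 CPM in INSL3-KI and 104, 105 and 107 CPM in INSL3-KO. Both mutants lay above WT and INSL3-KI above INSL3-KO, with no overlap. The log2 fold change of Fbxo32 was 4.19 ± 0.19, adjusted p = 1.2e-06 in INSL3-KI, 2.41 ± 0.07, adjusted p = 1.1e-06 in INSL3-KO and 1.74 ± 0.15, adjusted p = 8.6e-05 between them. Its mean level was 1777% of WT in INSL3-KI, against 533% in INSL3-KO. With all 5 gubernaculum groups in 1 fit the call in INSL3-KI held, and those in INSL3-KO and between the mutants did not (adjusted p = 0.015 and 0.066). MuRF1 (Trim63, chr4:134315120-134329629), the other ligase known for muscle wasting, went the other way. The Trim63 level was 48.5, 43.8 and 37.0 CPM in WT, 2.79, 2.16 and 2.16 CPM in INSL3-KI and 10.4, 11.0 and 9.73 CPM in INSL3-KO, a change of -4.14 ± 0.17, adjusted p = 1.1e-06 in INSL3-KI and -2.06 ± 0.12, adjusted p = 9.9e-06 in INSL3-KO. INSL3-KI kept 5.50% of it, more than of its relatives MuRF3 (Trim54, chr5:31116712-31137630) and MuRF2 (Trim55). Trim54 had no read in any INSL3-KI library, against 86.3, 83.0 and 74.4 CPM in WT and 11.8, 12.4 and 14.5 CPM in INSL3-KO. The fall in INSL3-KI was at least 2961-fold, with 3 counts over the group as the floor. Trim55 stood at 0.194% of WT in INSL3-KI, against 16.3% in INSL3-KO. The Kelch protein Klhl41 (chr2:69670120-69684230), which with Klhl40 stabilises nebulin and leiomodin, was highest per length of the 6 in WT, 204 ± 14.4 FPKM. It was at 644, 577 and 576 CPM in WT, 0.964, 0.169 and 0.234 CPM in INSL3-KI and 125, 131 and 137 CPM in INSL3-KO. Klhl40 fell further than Klhl41 in INSL3-KO, to 6.12% of WT against 21.9%, and both fell to about 0.1% in INSL3-KI (0.112% and 0.0760%).

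The 4 attachment and stretch genes were lower in INSL3-KI, and Smpx was not called in INSL3-KO. Smpx (chrX:157698910-157752591), a small stretch-responsive protein, was highest per length of the 4 in WT, 223 ± 35.3 FPKM, and fell least. It was at 286, 234 and 217 CPM in WT, 40.3, 59.6 and 57.1 CPM in INSL3-KI and 176, 184 and 197 CPM in INSL3-KO. INSL3-KO libraries lay just below those of WT (-0.41 ± 0.11, adjusted p = 0.013) and INSL3-KI libraries far below both, a call against WT that was lost with all 5 groups in 1 fit at an adjusted p of 0.079 (-2.19 ± 0.18, adjusted p = 2.8e-05 against WT and -1.82 ± 0.15, adjusted p = 6.8e-05 against INSL3-KO). Xirp2 (chr2:67446002-67526614), a Xin-repeat actin-binding protein, fell most in INSL3-KI. The Xirp2 level was 54.6, 168 and 147 CPM in WT, 0.406, 0 and 0.0584 CPM in INSL3-KI and 34.0, 32.9 and 35.5 CPM in INSL3-KO. WT replicate 1 was the lowest of its group for Xirp2, and the call in INSL3-KO (-1.86 ± 0.38, adjusted p = 0.0037) was lost without WT replicate 2 (adjusted p = 0.014), without WT replicate 3 (0.015) and without INSL3-KO replicate 1, 2 or 3 (0.016, 0.021 and 0.013). Its relative Xirp1 (chr9:120013755-120023598) was at 449, 603 and 462 CPM in WT, 0.812, 0.927 and 1.14 CPM in INSL3-KI and 24.5, 25.6 and 24.6 CPM in INSL3-KO. The fall of Xirp1 in INSL3-KO, -4.35 ± 0.14, adjusted p = 1.2e-06, was deeper than that of Xirp2, and the groups did not overlap. Nrap, which anchors new myofibrils to the membrane, stood at 0.511% of WT in INSL3-KI, against 12.2% in INSL3-KO.

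**Figure D3:**
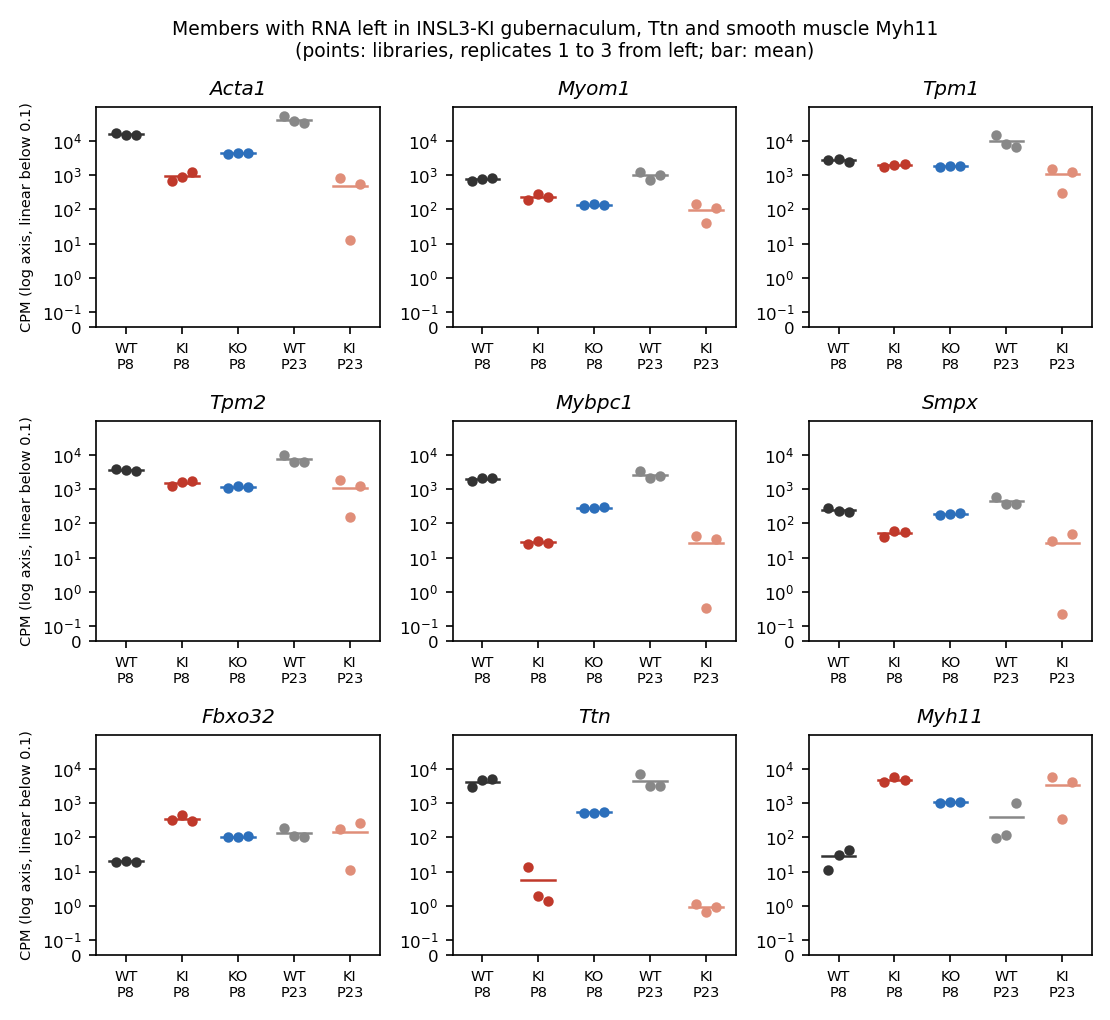
CPM in each library (points, replicates 1 to 3 from left, with bars for means) of Acta1, Myom1, Tpm1, Tpm2, Mybpc1, Smpx and Fbxo32, of Ttn and of the smooth muscle myosin Myh11, on a log axis that is linear below 0.1 CPM. Ttn fell to between 1.34 and 13.4 CPM in INSL3-KI at P8 while Tpm1 lay between 1710 and 2148 CPM, Fbxo32 and Myh11 were higher there than in WT, and replicate 2 of INSL3-KI at P23 lies below the others of its group for all 9 genes plotted.

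At P23 the comparison of INSL3-KI with WT had a wider spread between libraries. Of the 40 genes, 25 were called lower, none higher and 15 were not called, where 2.35% of 15082 genes tested were called lower and 0.212% higher (355 and 32 genes, or 308 and 74 with library size as the only scaling). The median log2 fold change was -10.93, or -10.80 with the 9 genes that had no count in INSL3-KI and Xirp2, which had 2, set at their bounds or ratios. INSL3-KI libraries lay below all WT libraries for 39 of the 40 genes, against 21.7% of all genes tested in this direction and 19.4% in the other. Fbxo32 was the exception. The number of members called lower was 39 with DESeq2 (7.82% of all genes tested) and 39 with all 5 groups in 1 fit (8.98%). With the replicate number as a block, although the numbers do not pair these samples, it was 0 (0%). The number of members called lower also moved with single libraries. It was 15, 0 and 9 without WT replicate 1, 2 or 3, and 12, 32 and 26 without INSL3-KI replicate 1, 2 or 3, while the median stayed between -11.15 and -10.30. Of all genes tested, 0.698%, 0.123% and 0.498%, and 0.495%, 3.23% and 1.54%, were called lower in the same order.

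Ttn and Neb, all 9 Z-disc genes, Myom3, Mybpc2, Mybph, Actc1, Lmod2, Lmod3, Mylpf, Mylk4, Trim54, Trim55, Klhl40, Klhl41, Xirp2 and Nrap were called lower at P23. Ttn was at 7047, 3266 and 3156 CPM in WT and 1.16, 0.645 and 0.927 CPM in INSL3-KI (-12.25 ± 0.77, adjusted p = 0.0015). Actn2 was at 3037, 1751 and 1851 CPM in WT and 0, 0.0922 and 0.0662 CPM in INSL3-KI (-15.26 ± 0.98, adjusted p = 0.0015). The INSL3-KI libraries thus held almost no Actn2, while Ldb3 again fell least of the Z-disc genes, from 2805, 1358 and 1635 CPM to 27.1, 30.7 and 18 CPM (-6.25 ± 0.49, adjusted p = 0.0024). The 9 genes without a count in INSL3-KI at P23 were lower by at least 259-fold (Myoz3), 2695-fold (Trim55), 5375-fold (Klhl40), 7285-fold (Trim54), 11973-fold (Mybph), 11983-fold (Lmod3), 15525-fold (Myl2), 17286-fold (Lmod2) and 30875-fold (Csrp3). Xirp2, with 2 counts, had a ratio of 55062 with an interval of 15242 to 454670. Csrp3 and Trim54 had thus almost no read in INSL3-KI at either age, although WT held 1174, 671 and 664 CPM of Csrp3 and 315, 132 and 152 CPM of Trim54 at P23.

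The 15 genes not called at P23 include those that kept most RNA at P8. Acta1 was at 55540.0, 38906 and 33573 CPM in WT and 835, 12.7 and 569 CPM in INSL3-KI (-6.47 ± 1.76, adjusted p = 0.062). Tpm1 was at 14946, 8126 and 6514 CPM in WT and 1565, 311 and 1290.2 CPM in INSL3-KI (-3.21 ± 0.82, adjusted p = 0.054). The lowest value of both came from INSL3-KI replicate 2, which also had the lowest smooth muscle marker sum of its group, 2088 CPM against 15710 and 14018 CPM. Tpm2 was at 10291, 6248 and 6089 CPM in WT and 1842, 151 and 1219 CPM in INSL3-KI (-2.80 ± 0.96, adjusted p = 0.1). Tpm3 was the only tropomyosin that was not lowest in INSL3-KI replicate 2, at 1471, 709 and 981 CPM in WT and 168, 277 and 199 CPM in INSL3-KI (-2.30 ± 0.37, adjusted p = 0.018). Myom1 was at 1236, 751 and 1051 CPM in WT and 144, 38.8 and 109 CPM in INSL3-KI (-3.36 ± 0.56, adjusted p = 0.02). No INSL3-KI library reached the WT range for any of these 5 genes. Mybpc1 was at 3476, 2069.9 and 2369 CPM in WT and 43.3, 0.338 and 35.5 CPM in INSL3-KI (-6.62 ± 1.66, adjusted p = 0.051), and Smpx at 584, 369 and 377 CPM and 31.1, 0.215 and 50.5 CPM (-4.01 ± 1.52, adjusted p = 0.13). In both, replicate 2 was near 0 while the other INSL3-KI libraries lay between 31.1 and 50.5 CPM.

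Other genes not called at P23, Fbxo32 aside, were at 12.6 CPM or less in every INSL3-KI library, and most were uneven between its libraries. Myom2 was at 645, 451 and 475 CPM in WT and 0.110, 0.123 and 3.77 CPM in INSL3-KI (-8.59 ± 1.67, adjusted p = 0.027). Myl1 was at 12299.5, 9024 and 6812 CPM in WT and 5.13, 12.6 and 0.441 CPM in INSL3-KI (-10.61 ± 1.58, adjusted p = 0.014), and Myl3 at 889, 366 and 209.8 CPM and 0.579, 0.123 and 0 CPM (-11.02 ± 1.55, adjusted p = 0.012). Replicate 2 was the highest INSL3-KI library for Myl1 and for Mylk2, which was at 528, 187 and 180.1 CPM in WT and 0, 3.93 and 0.177 CPM in INSL3-KI (-7.81 ± 1.90, adjusted p = 0.048). Myl2, at 823, 295 and 191 CPM in WT and without a read in INSL3-KI, had an adjusted p of 0.01 that is not under the threshold. Trim63 was at 233, 127 and 109.8 CPM in WT and 0.524, 0 and 1.65 CPM in INSL3-KI (-7.70 ± 1.35, adjusted p = 0.022). Xirp1 was at 379, 168 and 198 CPM in WT and 0.110, 7.34 and 0.772 CPM in INSL3-KI (-6.53 ± 1.53, adjusted p = 0.044). Fbxo32 alone had overlapping groups, with 184, 109 and 102 CPM in WT and 173, 11.2 and 260.0 CPM in INSL3-KI (0.18 ± 0.97, adjusted p = 0.91), and the sign of its small difference changed with the setting.

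Whether the effect of the whale allele differed between the ages was tested with an interaction term. None of the 40 genes was called, while 0.194% of 16016 genes were called lower and 0.0874% higher, and 4094 genes had an unadjusted p under 0.05. The lowest adjusted p-values were those of Trim55 (-5.36 ± 0.77, adjusted p = 0.012), Mybpc2 (-4.64 ± 0.78, adjusted p = 0.013) and Klhl40 (-5.56 ± 0.97, adjusted p = 0.018). DESeq2 called 14 members lower in this test, and 3.75% of 19702 genes lower and 1.96% higher. Within INSL3-KI, no gene at all was called between P23 and P8 by edgeR (0% of 15271 genes, with 3069 at an unadjusted p under 0.05, and 361 lower and 235 higher by DESeq2), and 24 of the 40 had enough reads for the test, with a median log2 fold change of -0.65.

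In WT the same genes changed with age in an uneven way. From P8 to P23, 11 of the 40 rose, 1 fell and 28 were not called, where 6.17% of 14941 genes tested rose and 4.34% fell. The median log2 fold change of the 40 was 1.02 and that of all genes 0.00, and the median member stood at 204% of its P8 level. P23 libraries lay above all P8 libraries for 26 genes and below them for 3, where 27.5% and 26.8% of all genes tested had such groups. The rises were those of Tcap (3.38 ± 0.49, adjusted p = 0.0031), Xirp2 (3.01 ± 0.48, adjusted p = 0.0041), Mybpc2 (3.0 ± 0.36, adjusted p = 0.0017), Fbxo32 (2.73 ± 0.24, adjusted p = 0.00071), Actn3 (2.30 ± 0.31, adjusted p = 0.0025), Mylk2 (2.27 ± 0.44, adjusted p = 0.0084), Nrap (2.14 ± 0.36, adjusted p = 0.0053), Myoz1 (2.0 ± 0.27, adjusted p = 0.0024), Trim63 (1.85 ± 0.29, adjusted p = 0.0039), Tpm1 (1.85 ± 0.35, adjusted p = 0.0074) and Myot (1.47 ± 0.30, adjusted p = 0.0092). Of these, Actn3, Myoz1 and Mybpc2 are forms of fast fibres, while Myom2, Myl1 and Mylpf, also of fast fibres, were not called. Tcap went from 104, 129 and 137 CPM to 2367, 855 and 664 CPM. Fast Mybpc2 went from 119, 246 and 189 CPM to 2066, 1361 and 1035 CPM, and fast Actn3 from 374, 592 and 509 CPM to 3412, 2144 and 1749.5 CPM. Each P23 library lay above each P8 library for these 3 genes.

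Actc1, the embryonic form of muscle actin, was the 1 gene that fell, from 5516, 3175 and 3238 CPM at P8 to 346, 727 and 231 CPM at P23 (-3.19 ± 0.48, adjusted p = 0.0037). Acta1, its adult counterpart, was at 14892 to 16757 CPM at P8 and 33573 to 55540 CPM at P23 and was not called (1.43 ± 0.31, adjusted p = 0.012). Slow or cardiac forms were not called. Their changes ran from 0.35 ± 0.25 for Mybpc1, 0.52 ± 0.27 for Tpm3 and 0.60 ± 0.26 for Myoz2 to 1.09 ± 0.30 for Csrp3, 1.5 ± 0.49 for Myl2 and 1.56 ± 0.48 for Myl3. Actn2 (0.40 ± 0.25) and the fast light chains Myl1 (1.30 ± 0.28) and Mylpf (1.05 ± 0.29) were not called either. Ttn (0.04 ± 0.37) and the myomesins (from -0.14 for Myom2 to 0.39 for Myom1) also were not called, and neither were Trim55 (-0.75 ± 0.14, adjusted p = 0.0074, under 2-fold) and Xirp1 (-1.03 ± 0.31, adjusted p = 0.036). Among the turnover genes Fbxo32 rose from 19.2, 21 and 19.1 CPM to 184, 109 and 102 CPM and Trim63 from 48.5, 43.8 and 37.0 CPM to 233, 127 and 109.8 CPM. Klhl40 did not pass the test (-0.20 ± 0.18, adjusted p = 0.42) and Klhl41 did not at this threshold (1.02 ± 0.25, adjusted p = 0.019). The number that rose depended on single libraries, being 1, 2 and 1 without WT replicate 1, 2 or 3 at P8 and 13, 8 and 10 without WT replicate 1, 2 or 3 at P23. Of all genes tested, 1.12%, 0.987% and 0.876%, and 4.49%, 3.89% and 5.23%, rose in the same order.

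**Figure D4:**
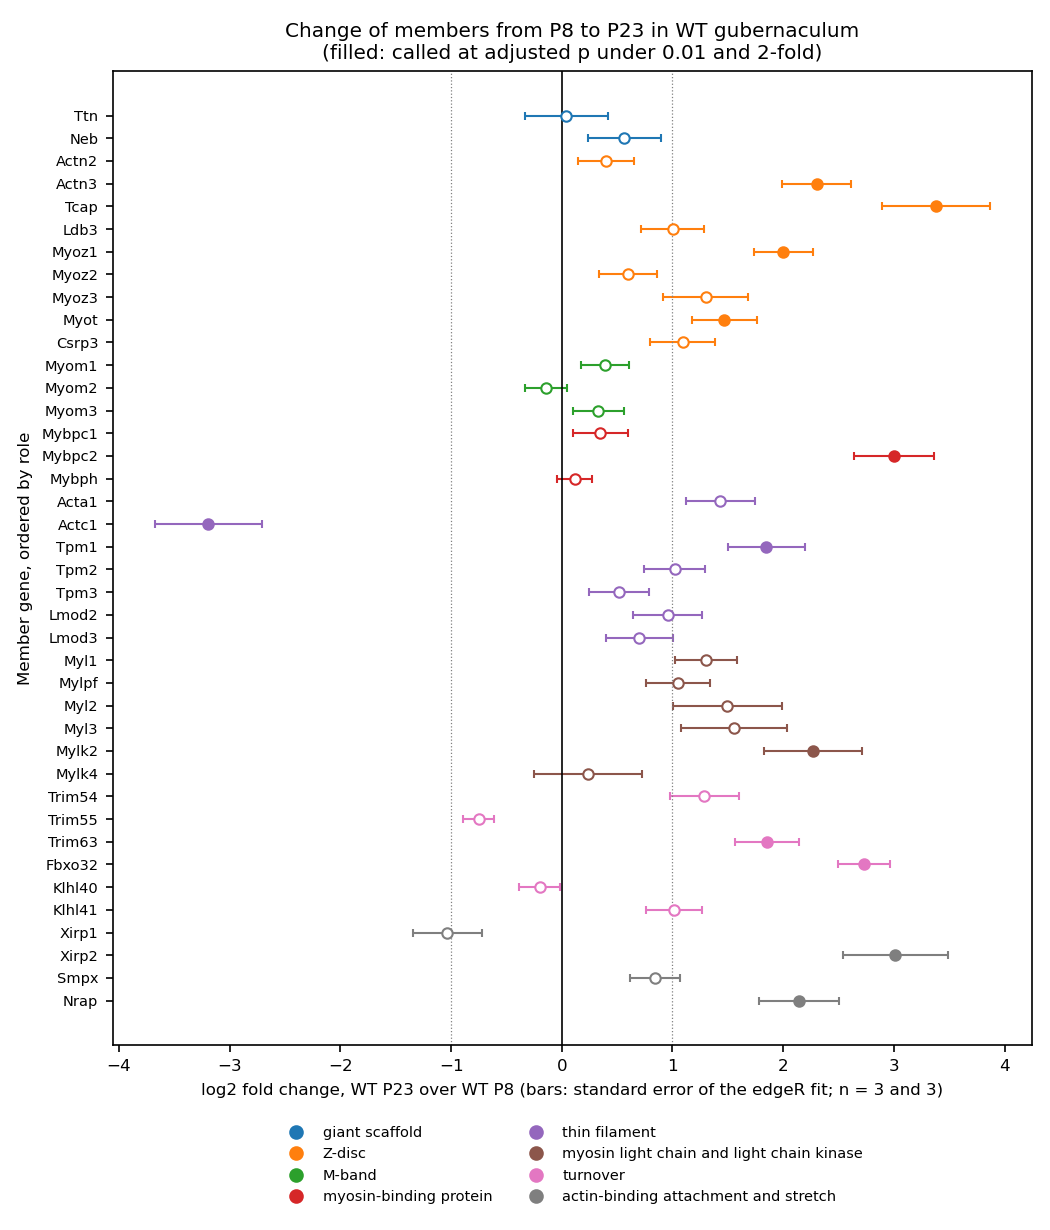
Log2 fold change of each of the 40 genes from P8 to P23 in WT gubernaculum, with standard errors of the edgeR fit (3 libraries per age), coloured by role and filled where called. Tcap at 3.38, Xirp2 at 3.01 and Mybpc2 at 3.0 lie farthest right, Actc1 at -3.19 lies alone on the left, and Ttn and the 3 myomesins lie near 0.

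The balance between paralogous forms was described by their ratio of FPKM within each library, without a test. The log2 ratio of Acta1 to Actc1 was 2.06 ± 0.37 (SD, n = 3) in WT at P8 and 6.78 ± 0.88 in WT at P23. In INSL3-KI at P8 it was 9.57 ± 1.03, above every library of both WT groups, and in INSL3-KO 3.96 ± 0.03, between the P8 and P23 WT groups. The ratio of Actn3 to Actn2 had the same order, with -1.72 ± 0.40 in WT, -0.79 ± 0.05 in INSL3-KO and 3.72 ± 0.98 in INSL3-KI at P8 and 0.19 ± 0.19 in WT at P23. The ratio of Myoz1 to Myoz2 went from -0.50 ± 0.09 in WT at P8 to 0.90 ± 0.03 at P23, with -0.39 ± 0.49 in INSL3-KI and 0.00 ± 0.07 in INSL3-KO. Fast Mybpc2 over slow Mybpc1 was -3.64 ± 0.38 in WT at P8 and -0.89 ± 0.31 at P23, and was -4.37 ± 0.58 in INSL3-KI at P8. The INSL3-KO value is not compared here, since the FPKM and counts of Mybpc1 imply a length in the second table of 0.283 times that in the first. The light chain ratios lay close together in WT and INSL3-KO, with 4.55 ± 0.14 for Myl1 over Myl3 in WT at P8, 4.90 ± 0.10 in INSL3-KO and 4.5 ± 0.62 in WT at P23, and 3.60 ± 0.22, 3.47 ± 0.07 and 3.39 ± 0.61 for Mylpf over Myl2. In INSL3-KI several ratios rest on few reads, and at P23 that of Acta1 to Actc1 was 11.6, 3.0 and 10.9 in replicates 1 to 3.

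**Figure D5:**
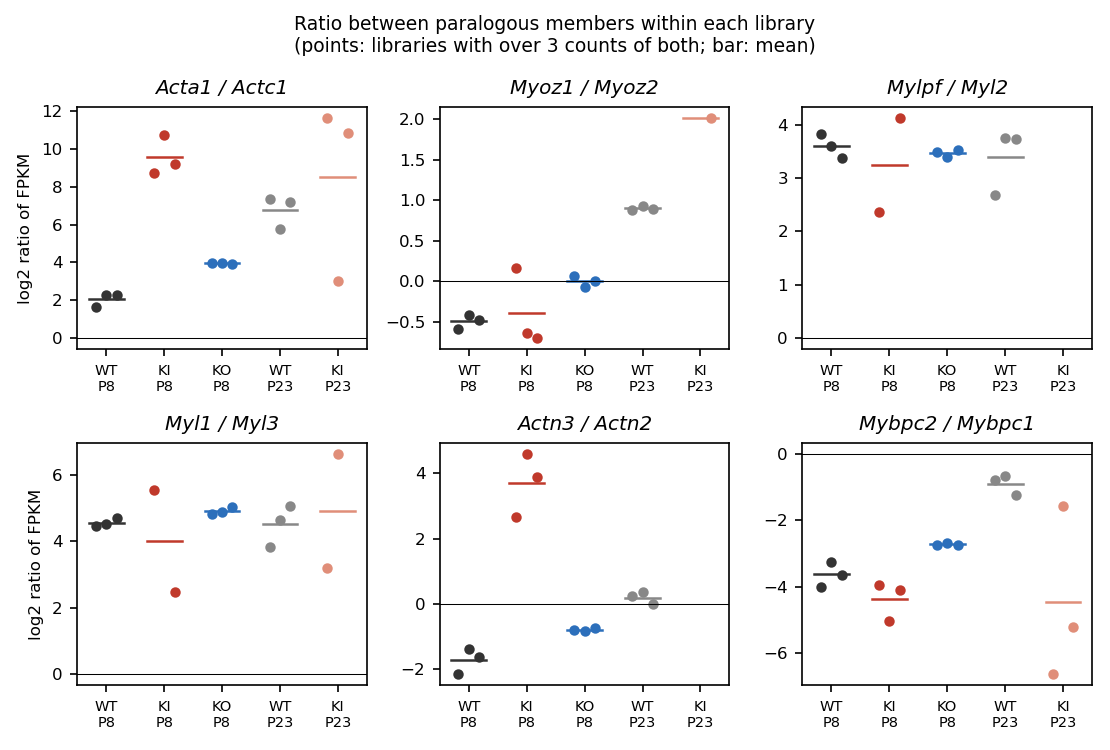
Log2 ratio of FPKM between paralogous genes in each gubernaculum library with over 3 counts of both (points, with bars for means). Acta1 over Actc1 and Actn3 over Actn2 are higher in INSL3-KI at P8 than in either WT group, Myoz1 over Myoz2 and Mybpc2 over Mybpc1 are higher in WT at P23 than at P8, and the light chain ratios of WT and INSL3-KO lie close together. FPKM of Mybpc1 in INSL3-KO are on another length than in the other groups.

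Other genes of striated muscle were counted beside the share of all genes called in each comparison. Of 30 other Z-disc, costamere and sarcomere assembly genes, 25 were lower and none higher in INSL3-KI at P8 (median log2 fold change -3.82, with 9.7% of all genes lower), with Dmd, Pdlim3, Bag3, Pdlim7 and Synpo2 not called. The most abundant per length in WT were Fhl1, a LIM protein (-2.97 ± 0.15), desmin (-1.50 ± 0.22), Hspb1 (-2.74 ± 0.16) and Cryab (-3.23 ± 0.13). In INSL3-KO 24 were lower and none higher (median -2.48, with 15.2% of all genes lower), at P23 17 were lower in INSL3-KI (2.35% of all genes), and in WT 10 rose and 1 fell with age (6.17% and 4.34% of all genes). Of 12 troponins and myosin heavy chains, 11 were lower and none higher in INSL3-KI at P8 (median -9.25) and 10 were lower in INSL3-KO (median -2.24). Tnnc2 (-7.65 ± 0.18), Tnnt3 (-9.50 ± 0.88), perinatal Myh8 (-11.19 ± 0.65) and Tnni2 (-9.45 ± 0.88) were the most abundant. With age in WT 3 of the 12 rose and 2 fell, perinatal Myh8 among the latter (-1.76 ± 0.26, adjusted p = 0.0033).

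Family members that smooth muscle and other cells use were counted as well. Of 23 such genes, 9 were higher and 2 lower in INSL3-KI at P8 (median 0.75), where 14.4% and 9.7% of all genes were called. In INSL3-KO 5 were higher and 2 lower (median 0.67), where 15.5% and 15.2% of all genes were called, so that these counts lie near the background. None was called at P23. The most abundant per length in WT were the cytoplasmic actins Actg1 (0.75 ± 0.14, adjusted p = 0.0027) and Actb (0.85 ± 0.12, adjusted p = 0.00061), neither at 2-fold, Acta2 (3.01 ± 0.18, adjusted p = 5.1e-06), which rose, and Myl12a (-1.79 ± 0.13, adjusted p = 1.2e-05), which fell. Acta2 rose in INSL3-KO too (2.09 ± 0.12, adjusted p = 1.1e-05), and between the mutants it differed by 0.88 ± 0.07, adjusted p = 7.3e-05, under 2-fold.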

How the data were processed

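RNA-seq libraries of gubernaculum were compared between WT, INSL3-KI and INSL3-KO mice. The authors made mRNA libraries, sequenced 150-base paired reads and deposited, per library, raw gene counts and FPKM in 2 tables, 1 with the 27 WT and INSL3-KI libraries and 1 with the other 12. The submitters' processing notes name HISAT2 and GRCm38, and the counting tool and its strand setting are not given in the sources used here. Tables were joined on Ensembl ID (21561 genes). Groups came from the labels.

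Each comparison was fitted to the deposited counts of all genes with edgeR 4.0.16 (R 4.3.3), TMM scaling, filterByExpr (minimum count 10, total 15), the quasi-likelihood test and Benjamini-Hochberg adjustment. Calls needed an adjusted p under 0.01 and at least 2-fold. Fold changes are log2 with standard errors. CPM printed per library use TMM over the 15 gubernaculum libraries and so can differ slightly from the pairwise fits. The deposited FPKM, per length, serve for levels between genes within a table. Alternatives were DESeq2 1.42.0, no filter, library size only, all 5 groups in 1 fit, a replicate block, an adjusted p under 0.05, each library left out, and limma 3.58.1 on log2(FPKM + 1) and log2(FPKM + 0.1). The scripts were tested on simulated data. The members, lists and tests were chosen with earlier results of these data known. Every member is named. By rule, per-library values are given for the member of each role with the highest FPKM in WT at P8, those with the largest and smallest fall in INSL3-KI, and those not called lower in a mutant. Myot, Tcap, Actn3 and Mybpc2 were added after their values were seen. Same-numbered replicates were not paired, since the correlation of their deviations did not exceed 0.1 for every pair in any comparison. Gene positions are from GENCODE on GRCm38, and 7 members overlap another protein-coding gene. Acta2, Des, Synpo2, Tnnt3, Tnni2, Myh1 and Myh4 stand in a marker list and in another list.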

Additional observations from a re-analysis of the deposited data

Results flagged for a closer look

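The testis libraries at postnatal day 40 (P40) take no part in the comparisons above. There, 9 of the 40 genes had a level above that of WT in every INSL3-KI library, at least 2-fold higher and at 10 CPM or more on average, where 15.2% of all 21561 genes met the same criteria, and the differences were not tested. Mean levels of tropomyosins were 159 CPM in INSL3-KI against 49.9 CPM in WT for Tpm1, 38.3 against 17.4 CPM for Tpm2 and 247 against 101 CPM for Tpm3. Actn3 was at 122 CPM against 23.3 CPM, Smpx at 81.5 against 24.0 CPM and Fbxo32 at 19.8 against 3.65 CPM. Myoz2 (16.7 against 1.99 CPM), Neb (13.5 against 3.40 CPM) and Myom1 (13.0 against 5.70 CPM) were scarcer. Ddx4, a germ cell gene, was at 386, 107 and 90.6 CPM in the INSL3-KI testes and at 817, 809 and 696 CPM in WT, and its part in these values was not tested. In the other direction, 9 members lay below every WT library in every INSL3-KI library and were at least 2-fold lower on average. None of the 9 was at 10 CPM or more in WT, while 17.4% of all 21561 genes met the same criteria at that level. The share of all genes without this limit of 10 CPM is not given here. Klhl41 (0.420 against 8.98 CPM) and Trim54 (0.210 against 6.14 CPM) were the most abundant of the 9 in WT. Acta1 was at 0.401 to 0.682 CPM in INSL3-KI and 0.771 to 0.827 CPM in WT. Groups of 3 gubernaculum libraries were too small for an outlier test, and the libraries described above as standing apart were not tested as outliers.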

How the results depend on the processing

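At P8 the 38 members lower in INSL3-KI, 36 lower in INSL3-KO and 35 lower in INSL3-KI compared with INSL3-KO moved by no more than 1.5 times (36 to 24 with all 5 groups in 1 fit the most) under the alternatives run, and ranged over 38 to 38, 35 to 36 and 34 to 35 with each library left out. Fbxo32, the 1 member higher in all 3, stayed higher in each of these (1 to 1), but with all 5 groups in 1 fit 0 members were higher in INSL3-KO and 0 in INSL3-KI than in INSL3-KO. At P23 the 25 members lower in INSL3-KI became 39 with DESeq2, 39 with all 5 groups in 1 fit and 0 with the replicate block, although the samples share only a number, and 0 to 32 with a library left out. In WT the 11 members that rose with age became 19 with DESeq2, 5 with all 5 groups, 22 at an adjusted p under 0.05 and 2 with the replicate block (1 to 13 with a library left out), and the 1 that fell became 2 with DESeq2, 0 with the replicate block and 2 when calls needed an adjusted p under 0.05 (0 to 2). Of all genes, 7.58%, 4.78%, 10% and 1.77% rose with DESeq2, all 5 groups, an adjusted p under 0.05 and the replicate block. With DESeq2, the replicate block and an adjusted p under 0.05, 6.23%, 1.84% and 7.76% of all genes fell. With a library left out, 0.876% to 5.23% of all genes rose and 1% to 3.77% fell. In INSL3-KI 2 members fell with age with all 5 groups in 1 fit, as did 1.02% of all genes. The interaction called 14 members lower with DESeq2 (3.75% of all genes), 5 with all 5 groups (1.85%) and 8 at an adjusted p under 0.05 (3.6%). It called 0 to 2 members lower with a library left out, where 0% to 1.35% of all genes were called lower. Over all genes, DESeq2 called 1400 lower and 841 higher at P23, and with all 5 groups 1323 were higher in INSL3-KI, 1526 in INSL3-KO and 1204 in INSL3-KI over INSL3-KO. Small differences of 3 genes changed sign. That of Fbxo32 at P23 was -0.54 with the block, -0.19 and -0.35 with limma at pseudocounts of 1 and 0.1, and -0.54 to 0.67 with a library left out, negative without INSL3-KI replicate 1 (-0.0071) or 3 (-0.54). For Ttn with age in WT it was -0.12 with library size, -0.046 with the block, -0.33 with limma at both pseudocounts, and -0.44 to 0.24 with a library left out, negative without WT replicate 1 at P8 (-0.15) or P23 (-0.44). For Mylk4 it was -0.064 with the block, -0.33 and -0.34 with limma, and -0.66 (without WT replicate 1 at P23) to 0.56 with a library left out. The cause was not tested for any of these. Single members' results kept direction and side of the threshold 2346 times, lost a call 176 times, gained one 91 times and reversed 15 times. Depth limits the genes at or near 0 in INSL3-KI, whose falls are bounds or rest on few reads, and 3 libraries per group with an uneven INSL3-KI replicate 2 limit P23.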
